A study of Mus musculus with 2 samples.

Results

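A recurrent new combination of known splice sites is a transcript structure of a known gene that the authors' caller placed in its class for new combinations (NIC). The class is meant to hold chains of introns that GENCODE release M21 does not list although the splice sites are known. A structure was taken as a member when the same gene and the exact same chain of introns carried this class in both libraries, with at least 5 reads in each. There were 998 members in 752 genes. They came from 21004 models of the class in replicate 1 and 19126 models in replicate 2, of which 6612 structures were seen in both libraries, so 15.1% of the shared structures were members. All classes together held 122655 models in replicate 1 and 116024 in replicate 2.

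The study measured long-read RNA sequencing of hippocampus from B6CASTF1/J mice, the first-generation hybrid of C57BL/6J and CAST/EiJ. The source label of both libraries reads layer of hippocampus tissue and does not name the layer. All animals were males aged 14 days, each library was made from 3 males and 2 µg of RNA, and there was a single group with 2 libraries, biological replicates 1 and 2, and no treatment or control. Labels of the samples point to separate animals, but another label lists those of replicate 1 for replicate 2 as well, so the libraries may differ only technically. The parental alleles were not separated here. The 8 hippocampal marker genes examined were read in both libraries, among them Wfs1 at 155 CPM in replicate 1 and 187 CPM in replicate 2 and Neurod6 at 248 and 214 CPM, where CPM is counts per 1000000 mouse reads. The lowest of the 8 was Prox1, at 14.6 and 26.9 CPM. Of 12 markers of neighbouring tissue and other cells 10 were read, and Rorb of the neocortex and Adora2a of the striatum had 0 reads. Cldn5 of the endothelium had 368 and 321 CPM, Hba-a1 of blood 147 and 179 CPM and Col3a1 of the meninges 84.0 and 108 CPM. Prkcd of the thalamus had 60.9 and 47.1 CPM, and Drd2 of the striatum 1.22 and 2.69 CPM. Replicate 1 held 821324 mouse reads and replicate 2 held 743862.

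A gene's introns are removed in many alternative ways, by skipping an exon, by choosing a nearby splice site, by keeping an intron, or by starting or ending the transcript at another exon. A catalogue lists the chains that have been seen, and a long read shows which of these choices stand together in a single RNA. The brain is known for widespread alternative splicing, including the use of very short exons called micro-exons.

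The sequences here show the places where some of the most abundant members departed from the nearest annotated transcript, which is the annotated transcript of the gene that shares most introns. They are spliced sequences from the GENCODE M21 transcripts on mm10, read 5′ to 3′. In the first set, capitals mark a very short annotated exon that the member lacked, with the neighbouring coding bases in lower case. The exons lie at chr9:25265302-25265306 on the plus strand in Sept7, chr13:58393853-58393868 on the minus strand in Hnrnpk, chr6:124716425-124716430 on the plus strand in Phb2 and chr9:86809651-86809656 on the minus strand in Snap91.
Sept7 exon: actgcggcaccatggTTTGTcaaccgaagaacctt
Hnrnpk exon: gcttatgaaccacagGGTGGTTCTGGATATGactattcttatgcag
Phb2 exon: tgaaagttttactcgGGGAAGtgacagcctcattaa
Snap91 exon: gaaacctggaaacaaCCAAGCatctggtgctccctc

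In the second set, capitals mark a 4-base gap that the members of the antizymes Oaz1 and Oaz2 kept as exon. The nearest annotated transcript of each gene leaves this gap, and other annotated transcripts of the gene cover it. Of the 34 printed bases, 34 in Oaz1 and 33 in Oaz2 are coding in some annotated transcript. The windows are chr10:80828277-80828310 and chr9:65686254-65686287, both on the plus strand.
Oaz1 gap: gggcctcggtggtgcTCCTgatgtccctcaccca
Oaz2 gap: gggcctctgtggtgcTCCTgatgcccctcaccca

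In the third set, each pair gives the junction in the member and in the nearest annotated transcript, with capitals on the 3 bases that the member alone held. The junctions of Ctbp1 lie within chr5:33248669-33249121 on the minus strand and those of Fbxo25 within chr8:13929426-13931199 on the plus strand. Both members held an extra CAG at the acceptor.
Ctbp1 member junction: tggggctgcctacagCAGgtaccctccagg
Ctbp1 nearest junction: tggggctgcctacaggtaccctccaggcgt
Fbxo25 member junction: ctccaggtgacaaagCAGgtaaacactggc
Fbxo25 nearest junction: ctccaggtgacaaaggtaaacactggcctc

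The last set shows a whole coding exon that the Cttn member lacked, chr7:144452027-144452137 on the minus strand, and a whole coding exon that the Ptpra member added, chr2:130509830-130509856 on the plus strand.
Cttn exon: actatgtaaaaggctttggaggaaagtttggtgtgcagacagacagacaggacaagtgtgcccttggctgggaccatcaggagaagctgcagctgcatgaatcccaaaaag
Ptpra exon: gtaattctgactcaaaagacaggagag

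Most models of the class were seen a single time. In replicate 1, 72.0% of them had 1 read, and in replicate 2 this share was 72.7%. The members held 19952 reads in replicate 1 and 17660 reads in replicate 2, which is 39.6% ± 0.175 of the reads of the class and 2.40% ± 0.0390 of mouse reads (SD, n = 2). At the read minimum, 178 members had 5 reads in their lower library and 25 had 5 in both, for example Tcf4 with 5 and 15, Caln1 with 14 and 5, and Dlgap4 with 14 and 5 reads in replicates 1 and 2. Another 214 structures had 4 reads in either library and 5 or more in the other, for example Srsf5 with 18 and 4, Enpp2 with 17 and 4, and Ak5 with 15 and 4.

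The class itself was not the same in both libraries for 129 further structures with at least 5 reads in each. Of these, 80 were classed as holding a new splice site in the other library and 49 as an incomplete match of an annotated transcript. The structure of this kind with the most reads belonged to Cpne6, a copine of hippocampal neurons, with 473 reads as an incomplete match in replicate 1 and 411 reads as a new combination in replicate 2. A structure of Aplp2 had 238 reads in each library and changed class in the same way. These structures are not members.

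The members were long chains. Their median was 11 exons (quartiles 8 and 16, range 2 to 56), against 8 exons (quartiles 5 and 13) for the 8428 annotated spliced transcripts with the same read minimum and 9 exons for the 241 structures of known genes with a new splice site. Members had a median of 20 reads over both libraries and 12.8 CPM, while annotated transcripts had a median of 42 reads. Of the members, 989 belonged to protein-coding genes and 6 to long intergenic non-coding RNA genes. The first position of a member differed by at most 100 bases between the libraries in 929 and the last in 841, and both did in 784.

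Within their genes, members were mostly minor forms, and some were the main form. A member held a median of 12.1% of its gene's reads (quartiles 6.03 and 23.6, range 0.309 to 95.5), against 63.2% for the recurrent annotated transcripts and 13.7% for the structures with a new splice site. A share of at least 10% was reached by 580 members and a share of at least 50% by 59. In 252 members (25.3%) no other spliced structure of the gene had more reads, ties included, and these are called leading. The same count was 6833 (81.1%) for the annotated transcripts and 70 (29.0%) for structures with a new splice site. Leading members numbered 249 on the reads of replicate 1 alone and 253 on those of replicate 2 alone. Every annotated transcript of the gene had fewer reads than the member in 333 members (33.4%). This count includes 43 members of 29 genes in which no read was assigned to an annotated transcript.

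**Figure D1:**
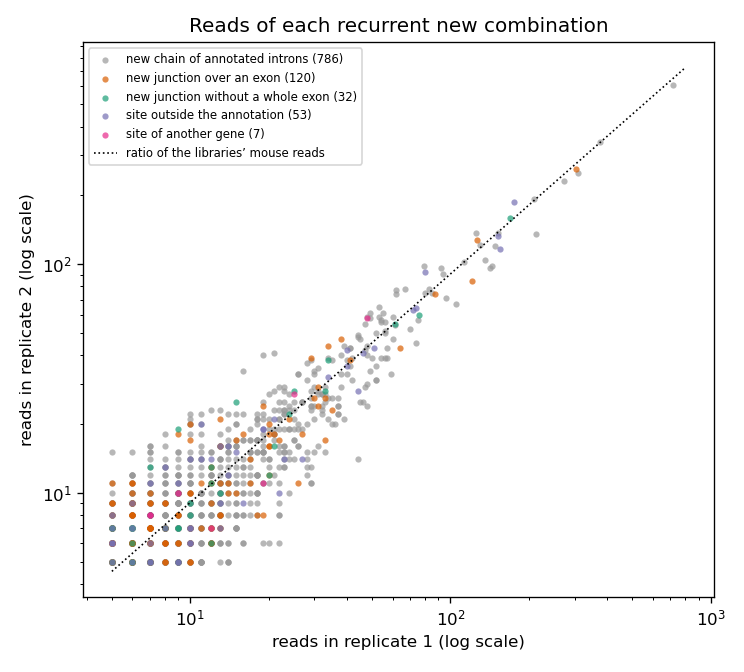
Reads of the 998 members in replicate 1 (horizontal) and replicate 2 (vertical), both on log scales, coloured by the kind of new combination. The dotted line is the ratio of the libraries' mouse reads, and the points run along it from the minimum of 5 reads to Oaz1 with 717 reads in replicate 1 and 610 in replicate 2.

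Most members used no intron that the annotation lacks. In 786 members (78.8%) every intron was annotated in the same gene, and only the chain was new. Of these, 714 (90.8%) could be put together from 2 stretches of annotated transcripts, 66 from 3 and 6 from 4. Another 120 members (12.0%) joined annotated sites by a new junction that spanned at least 1 whole annotated exon, and 32 (3.21%) by a new junction that spanned none. The remaining 60 held a splice site that the M21 annotation of their gene lacks, against what the class name says. In 53 (5.31%) at least 1 such site was in no annotated transcript of any gene, and in 7 all such sites belonged to another gene. Leading members made up 25.6% of the new chains, 25.8% of the new junctions over an exon and 20.8% of the members with a site outside the annotation.

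The new junctions were also read in other structures. The members held 143 distinct new junctions between annotated sites, and 80 of them (55.9%) were also present in models of both libraries that are no members, while 33 were in no such model of either. With the reads of every member left out, the median junction had 2 reads in replicate 1 and 1 read in replicate 2. The new junction of the Klc1 member with the most reads, which a second member of the gene shared, had 24 reads of models that are no members in replicate 1 and 17 in replicate 2. That of the Cttn member had 11 in each, and that of the Mpc1 member had 0 and 1.

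Compared with the nearest annotated transcript, the most frequent difference was another splice site of an exon, in 267 members. Another first exon was used by 245 members, 220 skipped an exon, 115 kept an intron, 97 added an exon, 81 used another last exon and 38 removed part of an exon. At least 2 such differences were found in 71 members, and 11 fell in no class. The leading share was 33.3% of the members with another last exon, 31.8% of those with another first exon, 32.0% of those that added an exon and 12.2% of those that kept an intron.

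**Figure D2:**
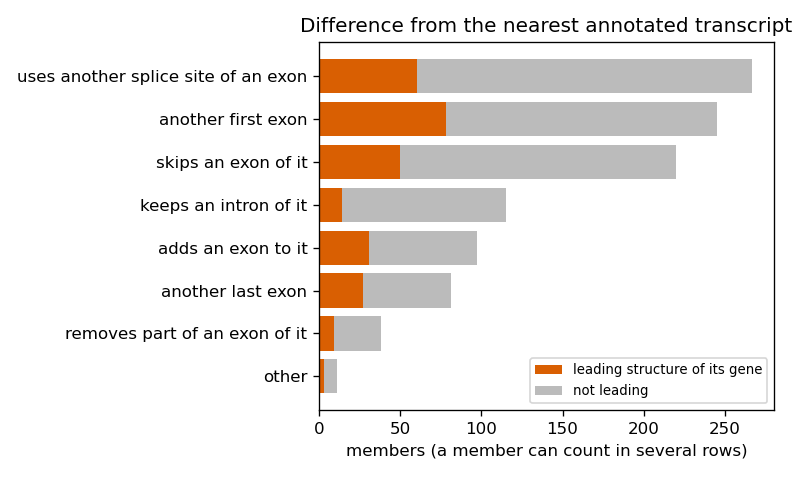
Number of members with each difference from the nearest annotated transcript, with the leading members of their gene in orange and the others in grey. Another splice site of an exon (267 members), another first exon (245) and a skipped exon (220) were the longest bars, and kept introns had 14 leading members of 115.

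Changes of the first exon gave several of the most abundant members. Apbb1, an adaptor that binds the amyloid precursor protein, had its member at chr7:105558483-105581192 with 375 reads in replicate 1 and 342 in replicate 2. This was 56.6% and 62.3% of the gene's reads, a mean of 59.5% ± 3.99 (SD, n = 2), and the most abundant annotated transcript had 82 and 54 reads. The member of the actin-bundling plastin Pls3 had 213 and 136 reads, or 79.8% and 66.7% of its gene. The libraries differed most here among the 15 members with the most reads. The member of Asphd2 had 152 and 137 reads, 54.6% ± 0.948 of its gene, against 15 and 13 reads of the most abundant annotated transcript. All 3 members kept the annotated coding sequence.

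The member of Mpc1, a subunit of the mitochondrial pyruvate carrier, led its gene with 121 and 84 reads, 90.9% ± 2.12. Its annotated start codon was absent. Elmo1, which acts with DOCK proteins to activate the GTPase Rac, had a member with 57 and 43 reads (76.8% ± 1.87) of 7 exons, which lacked 16 introns of the nearest annotated transcript and its start codon. Gabra5, a GABA-A receptor subunit that is abundant in hippocampus, had a leading member with 76 and 60 reads (24.4% ± 3.70) and the annotated coding sequence, while its most abundant annotated transcript had 53 and 63 reads. Among the members with another last exon, that of tropomyosin Tpm3, an actin-binding protein, had the most reads, 210 and 192. It made up 66.2% ± 0.955 of the gene, and the annotated Tpm3-201 had 60 and 54 reads.

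Shifts of a splice site, taken as the smallest shift of each member, were often short and often a multiple of 3. Shifts outside the coding sequence are included. The median shift was 23 bases, 69 of the 267 (25.8%) were of 3 bases, 9 of 4 bases, and 165 (61.8%) were a multiple of 3. The longest was 5143 bases. The corepressor Ctbp1, whose junction is printed above, had a member with 274 and 232 reads, or 52.1% and 53.2% of the gene, and its coding sequence was 3 bases longer than the nearest annotated one. The annotated Ctbp1-201 had 107 and 91 reads. Fbxo25, an F-box protein, had a member with 80 and 75 reads (81.2% ± 7.08), also 3 bases longer. The member of Hgs, which sorts ubiquitinated cargo at endosomes, had 48 and 58 reads (47.8% ± 7.59) and a coding sequence 3 bases shorter, at a site that the annotation lists only under another gene.

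Members that lacked an exon skipped 184 distinct annotated internal exons by a new junction, in 109 genes, where variants of an exon that differ by a splice site are counted apart. Their median length was 91 bases, against 123 bases for the annotated internal exons of protein-coding genes with reads. A multiple of 3 was found in 82 (44.6%), against 39.9% of the annotated exons. Among exons that are coding throughout, the share was 62 of 103 (60.2%), against 40.9% of the annotated. Of the 184 exons, 73 were the only annotated exon that their junction spanned. For the others, the length of a single exon does not give the change of the frame. The median inclusion of these exons, which is the reads that hold the exon over those plus the reads that span it, was 26.1% in replicate 1 and 22.7% in replicate 2. Without the reads of the member that skipped the exon, or of a single such member where several did, it was 47.6% and 50%. Inclusion was under 5% in both libraries for 65 exons and over 50% in both for 65.

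Cortactin (Cttn), which binds branched actin, had a leading member with 126 and 127 reads (41.0% ± 2.02) that lacked the 111-base exon printed above, so that its frame continued to the annotated stop. The exon was held by 76 reads and spanned by 147 in replicate 1, and held by 84 and spanned by 141 in replicate 2. Bin1, a membrane-bending protein of endocytosis, had a leading member with 87 and 74 reads (44.1% ± 2.29) that lacked an exon of 108 bases. Gephyrin (Gphn), the scaffold of inhibitory synapses, had a leading member with 56 and 51 reads (46.2% ± 0.891), also without an exon of 108 bases. That exon was held by 12 and 9 reads and spanned by 105 and 90, so most reads of the gene at this place left it out in both libraries.

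Added exons gave in-frame gains in named members. The receptor phosphatase Ptpra had a member with 125 and 137 reads (42.2% ± 1.39) that added the 27-base exon printed above. It tied over both libraries with the annotated Ptpra-201, which had 137 and 125 reads. Smap1, which activates the GTPase activity of Arf proteins, had a member with 49 and 58 reads (80.3% ± 3.59) and a coding sequence 81 bases longer than the nearest annotated one.

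**Figure D3:**
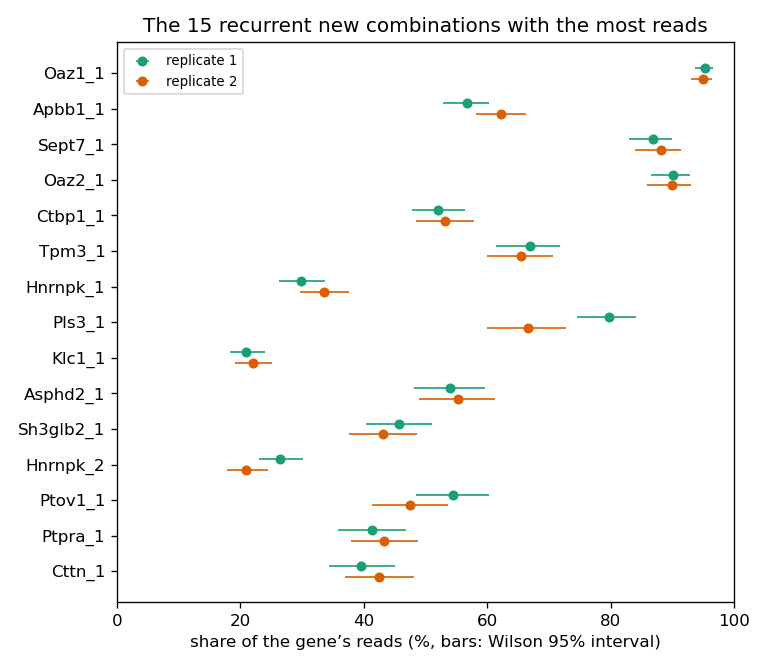
Share of the gene's reads, in percent, for the 15 members with the most reads, in replicate 1 (green) and replicate 2 (orange), with Wilson 95% intervals. Oaz1 stands at 95.3% and 95.02%, and the intervals of Pls3 (79.8% and 66.7%) do not overlap.

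Of the 10 members with the highest shares in genes with at least 50 reads in each library, 6 were of a different sort. Their nearest annotated transcript holds an exon or a gap of a few bases that the member did not have. An exon of at most 27 bases of the nearest annotated transcript was lacking in 35 members of 26 genes. These members held 1446 reads in replicate 1 and 1308 in replicate 2, and 17 of them led their gene. In 28 of the 35 (80.0%), which belonged to 19 genes, no read of either library held the exon. This was so in 6 of 185 members (3.24%) that lacked a longer exon. The neighbouring exons together were longer than annotated in 18 of the 35 and as annotated in 15. They were longer by exactly the length of the lacking exon in 7, of which 6 were members of Hnrnpk that lacked the same exon. Members of a gene can share a lacking exon, so these counts are not of independent exons. Very short exons of other annotated transcripts are not counted. New junctions of the Mpc1, Sept5 and Psap members spanned such exons, of 4 to 11 bases, that 0 reads held. The files hold positions and no read bases, so whether the reads contain the bases of these exons was not tested.

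Sept7, a septin that forms filaments with other septins, had a member with 304 reads in replicate 1 and 261 in replicate 2, 87.5% ± 0.932 of the gene. It lacked a 5-base exon that 0 reads held and that 343 reads spanned in replicate 1 and 289 in replicate 2. The same junction spanned further annotated exons of 5 and 2 bases, also held by 0 reads. All 6 members of Hnrnpk, an RNA-binding protein, lacked the 16-base exon and had neighbouring exons 16 bases longer in sum, and together they held 78.4% ± 0.897 of the gene's reads. The member of Phb2, a prohibitin of the mitochondrial inner membrane, lacked a 6-base exon and had 94 and 91 reads, 89.8% ± 0.827 of the gene, with 0 reads that held the exon. Uchl3, a ubiquitin hydrolase, had a member with 70 and 52 reads (83.1% ± 6.16) without a 12-base exon. For Trim44 the member had 80 and 92 reads (78.1% ± 4.70), and its 20-base exon was held by 7 and 2 reads. Snap91, a clathrin assembly protein of synapses, had a leading member with 96 and 71 reads (32.1% ± 6.02) without a 6-base exon. In each of these genes except Trim44, no read of the libraries held the short exon. Read from the model positions, the Sept7 and Uchl3 frames ended at another stop, 1236 and 621 bases shorter than the annotated ones. The first 2 Hnrnpk members also ended at another stop, 285 and 288 bases shorter. The Phb2 and Snap91 frames ended at an annotated stop, 6 and 21 bases shorter.

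Oaz1 had the member with the most reads, 717 in replicate 1 and 610 in replicate 2, which was 95.2% ± 0.233 of its gene. Antizymes limit polyamine levels and are made by a programmed shift of the ribosome's reading frame. The member kept as exon the 4-base gap printed above, and read without a shift its frame was 474 bases shorter than the annotated one. The member of Oaz2 kept the corresponding gap and had 309 and 251 reads, 90.0% ± 0.0872 of its gene. The printed windows of both genes carry the same 4 capital bases. In all, 7 members kept a gap of at most 4 bases, and the next shortest intron kept was 65 bases, with a median of 288 bases over the 115 members that kept an intron.

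**Figure D4:**
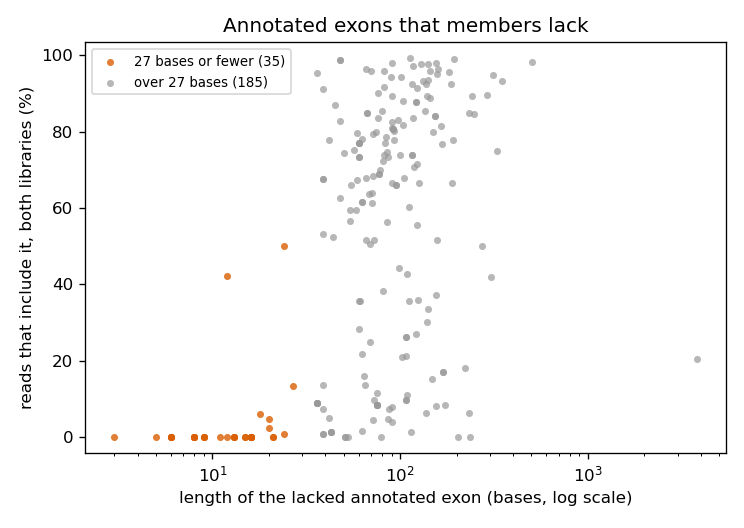
Length of the annotated exon that a member lacked, in bases on a log scale, against the percent of reads that include it over both libraries. Of the 35 members without an exon of 27 bases or fewer (orange) 28 lie at 0%, and the 185 members without a longer exon (grey) spread over the whole range.

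The reading frame was followed in each member from an annotated start codon. In 335 members (33.6%) the coding sequence equalled that of an annotated transcript. In 279 (28.0%) it changed and ended at an annotated stop, with 98 longer, 178 shorter and 3 of the same length. The median change was 42 bases, and 57 changed by 3 bases. In 215 (21.5%) it ended at another stop. The start codon was absent from 118 members, 40 held bases that the transcript sequences do not cover, and 11 belonged to genes without a coding transcript.

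A stop more than 50 bases before the last junction is a known trigger of nonsense-mediated decay. Of the 829 members read to a stop, 219 (26.4%) had such a stop, 174 of them among the members that ended at another stop. By their own annotated frames, which is a different procedure, 92 of 8151 recurrent annotated transcripts (1.13%) had one. The share was 25.9% for new chains of annotated introns and 29.8% for new junctions over an exon. Members that lacked an exon of at most 27 bases of the nearest annotated transcript were then left out. So were those that kept a gap of at most 4 bases or held a site outside the annotation of their gene. The share was then 25.5% over 780 members read to a stop. Leading members numbered 221 of the 912 that were left (24.2%). Among the 219 with such a stop was the member of Slc25a3, the mitochondrial phosphate carrier, with 23 and 15 reads (3.19% ± 0.574) and a kept intron. Its frame was 795 bases shorter than the annotated one. The member of Cul3, a scaffold of ubiquitin ligases, had 8 and 7 reads (7.90% ± 0.0788) and a frame 2139 bases shorter.

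**Figure D5:**
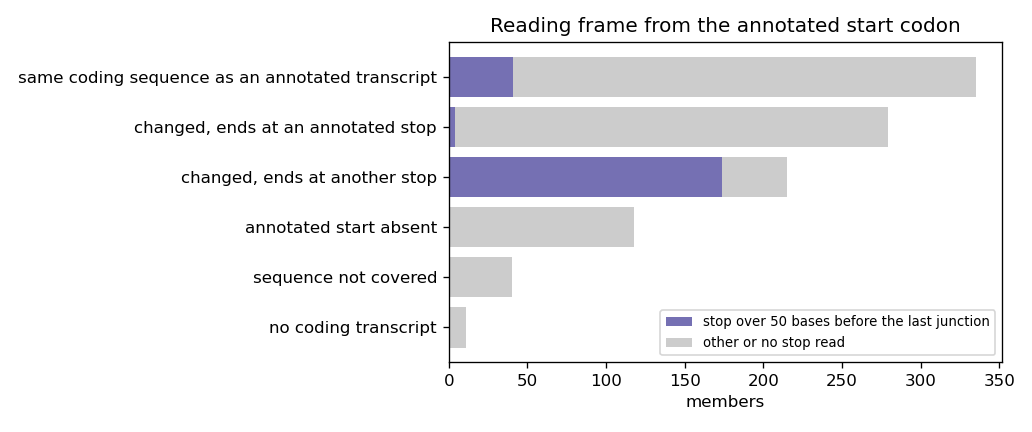
Number of members by what the reading frame from the annotated start codon did, with members whose stop lies over 50 bases before the last junction in purple. Of the 215 that ended at another stop 174 are purple, and of the 279 that changed and ended at an annotated stop 4 are.

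Some genes held many members. A single member was found in 595 genes, 104 genes had 2, 32 had 3 and 21 had 4 or more. Members together held over 50% of the reads in both libraries in 62 genes. Klc1, a kinesin light chain that links the motor to cargo, had 8 members with 61.3% ± 0.358 of the gene's reads. The first of them had 169 and 159 reads (21.5% ± 0.724) and a coding sequence 27 bases longer than that of Klc1-202, the most abundant annotated transcript with 203 and 179 reads. The other 7 ranged from 9.17% ± 2.09 to 0.925% ± 0.256 and combined another first exon, another last exon, an added exon and sites shifted by 24 or 27 bases, in part within the same member. Celf4, a neuronal RNA-binding protein, had 6 members with 28.3% of its reads, and 3 of them differed by 3 bases at a splice site. Ndrg4 also had 6, with 5.85% of the reads, of which 2 lacked an exon of 39 bases and 2 an exon of 48 bases. The 5 members of Map7d1, a microtubule-associated protein, held 37.8%, and 3 of them differed by 9 bases at a splice site.

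Deeply read genes had members more often. A member needs at least 5 reads in each library, so the rule itself limits members in genes with few reads. With 10 to 49 reads over both libraries, 65 of 5362 genes (1.21%) had a member, with 50 to 199 reads 354 of 4082 (8.67%), with 200 to 999 reads 288 of 1375 (20.9%) and with at least 1000 reads 45 of 150 (30.0%). Lists of hippocampal and general genes are therefore given over the genes with at least 50 reads in each library, of which 526 of 3001 (17.5%) had a member. The lists hold chosen genes and not whole families, so a low count does not describe a family. Members outside them included those of the synaptotagmin Syt5 (130 and 121 reads), Snap91, the proteasome genes Psmc4 and Psmd5 and the initiation factor Eif4e2. Splicing factors had one in 9 of 17 genes, with 22 members, of which Hnrnpk and Celf4 held 6 each. The listed synaptic vesicle genes had one in 0 of 16. Members were found in 6 of 15 genes of kinase and phosphatase signalling, 7 of 20 of the cytoskeleton, 3 of 7 of cell adhesion, 3 of 9 of GABA receptors and interneurons, 3 of 11 postsynaptic genes, 2 of 8 ion channels and pumps, 5 of 17 of mitochondria and energy, 4 of 15 astrocyte genes, 3 of 14 of amyloid and endocytosis, 1 of 12 of ubiquitin and proteasome, 1 of 13 of translation and 0 of 8 of myelin.

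Among the postsynaptic genes, Camk2b, a subunit of the calcium and calmodulin kinase of synapses, had a member with 24 reads in each library (3.54% ± 0.370) that lacked an exon of 45 bases. Dlg3, a scaffold of the postsynaptic density, had one with 11 and 14 reads (11.9% ± 2.95) without an exon of 54 bases. The member of Dlgap1, another scaffold protein of that structure, led its gene with 18 and 17 reads (11.2% ± 0.0553) and began at another first exon. Both skipped exons were of a length divisible by 3, and both coding sequences ended at the annotated stop.

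In the adhesion list, Ncam1 had a leading member with 12 and 23 reads (9.28% ± 2.52) and Nrcam a leading member with 9 and 5 reads (12.0% ± 4.58) and a coding sequence 9 bases shorter. Of the channels and pumps, the calcium pump Atp2b1 had a leading member with 25 and 17 reads (20.7% ± 8.73) and the sodium channel Scn8a one with 5 and 7 reads (7.23% ± 1.28). In the kinase list, Fyn, a Src-family kinase, had a member with 56 and 39 reads (15.1% ± 2.31) and the 14-3-3 protein Ywhaz one with 21 and 41 reads (4.82% ± 2.21), both with another first exon and the annotated coding sequence. Mapk10, the neuronal form of Jun kinase, had a member with 44 and 28 reads (20.0% ± 3.42) at a site outside the annotation.

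The astrocyte gene Ndrg2 had a member with 142 and 96 reads (12.5% ± 1.60), and Clu, a secreted chaperone, one with 35 and 26 reads (7.80% ± 0.316). Both began at another first exon and kept the coding sequence. In the mitochondrial list, Ndufs1 of respiratory complex I had a member with 18 and 22 reads (9.25% ± 2.39) and Ldhb, a lactate dehydrogenase subunit, one with 16 and 6 reads (2.83% ± 1.22). For Eif4g2, a translation initiation factor, the member had 20 and 18 reads (2.85% ± 0.106). Mag, a glycoprotein of myelin read below that depth in replicate 2, had a member with 44 reads in replicate 1 and 14 in replicate 2, and its share of the gene was 41.1% and 38.9%. The myelin genes Mbp (3746 and 1687 CPM) and Mobp (197 and 73.9 CPM) were also higher in replicate 1, as was the choroid plexus gene Ttr (194 and 87.4 CPM). The part of tissue makeup in the Mag reads was not tested, and in bulk tissue fewer cells of a type and less RNA per cell cannot be told apart.

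Some named members rest on less certain assignments. The member of Dynlt1c, a dynein light chain with near-identical neighbouring copies, had 25 and 27 reads (29.0% ± 1.35) and a site of another gene, and how reads were divided among the copies is uncertain. The member of Gprasp1 with a site of another gene had 19 and 11 reads (11.9% ± 3.20). That of Sh3glb2, an endophilin, had 153 and 133 reads (44.4% ± 1.86), and its sites were shifted by 4 bases to positions outside the annotation, with a frame 612 bases shorter than the annotated one. Unlike these, the member of Ptov1 used only annotated introns of its gene. It had 148 and 120 reads (50.9% ± 4.94), removed part of an annotated exon and kept the coding sequence.

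Between the libraries, the share of a member in its gene differed by a median of 2.59 percentage points. A two-sided Fisher's exact test set each structure with at least 20 reads over both libraries against the rest of its gene, with Benjamini-Hochberg adjustment over 8094 structures and a threshold of 0.05. Of all structures 38 were called, which is 0.469%, and of the 515 members tested 0 were called. At an unadjusted p under 0.05 there were 23 members (4.47%) and 458 structures (5.66%). The members were chosen on the reads of both libraries, so nothing is read from these counts. The test compares these libraries and not conditions, and it measures departure from counting error only. The smallest adjusted p of a member, by that exact test, was 0.176 for a member of Dmtn, with 13.2% of the gene in replicate 1 and 29.0% in replicate 2. The Wilson intervals of the libraries did not overlap in 3 of the 998 members (0.301%), in Dmtn, Pls3 and Sf3b2, and in 113 of all 11508 structures with the same read minimum (0.982%).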

How the data were processed

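Per the file headers, the deposited tables give raw read counts per transcript model for each library, with other columns for the number of exons and the length of each model, and the deposited annotations give exon positions on mm10. Per the text the authors deposited beside them, GENCODE M21 was the annotation. The annotation's source column names TALON. Neither aligner nor versions were found: they are not given in the sources used.

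Models were matched between libraries by gene and exact intron chain. Levels are reads, CPM over mouse reads without spike-ins, and shares of all reads of the gene, as mean ± SD over 2 libraries. Shares have Wilson 95% intervals. A count of 0 allows up to 3 reads, or 3.65 CPM (replicate 1) and 4.03 CPM (replicate 2). Such intervals and floors hold counting error alone, and amplified reads without molecular identifiers are not independent molecules. The p-values measure only departure from counting error between these libraries, which may differ only technically. Reading frames were followed in GENCODE M21 transcript sequences, because no genome was used here.

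Fisher's exact test was run in SciPy 1.17.1 on Python 3.11.15 and tested on simulated data. The members and the 14 gene lists were chosen with earlier results of these data known. The kind "site outside the annotation", the class of exons of at most 27 bases and the class of gaps of at most 4 bases were added after seeing the values. Members were named as those with the most reads over all (15) and the highest shares (10), the first 3 of each kind and list, and the 5 genes with most members. Members of Snap91, Dmtn, Sf3b2 and Cpne6 were named after their values were seen. So were those of Syt5, Psmc4, Psmd5 and Eif4e2 outside the lists, and the structures whose class differed between the libraries. A member that this rule names in the cell adhesion list is not reported here. Mapping error was not assessed, and the SIRV spike-ins were not used here. Alternatives varied the read minimum, the ends, the class, the denominator and the library.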

Additional observations from a re-analysis of the deposited data

How the results depend on the processing

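The number of members depends on the read minimum. It was 1719 with 3 reads in each library, 422 with 10 reads in each and 2778 with 5 reads over both libraries. On a single library it ranged from 1411 (without replicate 1) to 1604 (without replicate 2). With the class in either library it was 1127, and with both ends within 100 bases it was 784, both within 1.5 times the 998 reported. With only reads of annotated, new-combination and new-site models as the denominator, the median share of a member was 16.1%, and Fisher's exact test called 13 of 7158 structures, against 38 of 8094. Of these 13, 1 was a member, in Cpne6 (28 and 13 reads), whose adjusted p was 0.0156 there and 0.987 over all reads of the gene. That denominator counts the most abundant Cpne6 structure, classed differently in the libraries, in replicate 2 and not in replicate 1. The median share ranged from 11.9% to 12.0% on a single library. The share of skipped exons with a multiple of 3 was 60.2% for wholly coding exons. Calls with a minimum of 10 reads (28) or 50 reads (36), members made only of annotated introns of any gene (791), new junctions in other models of both libraries without the reads of any member (80), the median inclusion without incomplete matches (22.6%) or on a single library (22.7% to 26.1%), the median of 11 exons with 10 reads in each library, the leading members (249 to 253 on a single library) and the results without very short exons, gaps and outside sites (median share 12.0%, 221 leading members, 25.5% with an early stop) stayed close to the reported values. The alternatives on class, leading members by library, short exons and reads of members at new junctions were chosen after seeing the data. No paired analysis was possible because the libraries form a single group. Depth limits the shares: a member at the minimum had 5 reads in a library.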

Other observations

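In 29 genes, which held 43 members, no read of either library was assigned to an annotated transcript. Hnrnpk was among them, with 464 reads of members in replicate 1 and 434 in replicate 2 of the gene's 587 and 558 reads. Of the structures whose class differed between the libraries, the 49 that were an incomplete match in either library held 1367 reads in replicate 1 and 1235 in replicate 2, and the 80 with a new splice site in either library held 1340 and 1299. Besides Cpne6 and Aplp2, structures of Jakmip1 (87 and 76 reads) and Ogfrl1 (84 and 73 reads) were among those with the most reads.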
